A study of Mus musculus with 108 samples.

Results

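The respiratory chain and the ATP synthase of mouse liver were followed through 91 nuclear genes, out of 19514 genes with a symbol on the array. A gene was taken when its annotated symbol begins with Nduf, Uqcr, Atp5, Cox4, Cox5, Cox6, Cox7 or Cox8, or is Sdha, Sdhb, Sdhc, Sdhd or Cycs. The 91 genes comprise 35 of complex I, 4 of complex II, 8 of complex III, cytochrome c, 18 of complex IV, 17 of the ATP synthase (complex V), and 8 that the symbols also take in, namely the complex I assembly factors Ndufaf1 to Ndufaf7 and Cox7a2l. Ndufa4 is counted with complex IV, in which its protein is now placed.

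The livers came from ovariectomized female C57BL/6 mice gavaged with 300 mg/kg clofibrate or Wy-14,643, or with the vehicle, sesame oil. Livers were taken 2, 4, 8, 12, 18 and 24 h after a single dose, or 1, 4 and 14 days after the first of daily doses. Each compound had an arm of its own with its own time-matched vehicle groups, and each of the 36 groups had 3 biological replicates, giving 54 single-colour Agilent arrays per arm and 108 in all. The 24 h and 1 day groups are separate sets of mice although both stand a day after the first dose. Every mouse lacked its ovaries, treated and vehicle alike. Whole liver was used, so fewer cells of a type and less RNA per cell cannot be told apart.

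Electrons from NADH enter the chain at complex I and those from succinate at complex II, pass through complex III to cytochrome c and from there to oxygen at complex IV, and the proton gradient built along the way drives the ATP synthase. Most subunits are encoded in the nucleus, are made from abundant mRNAs in hepatocytes, and several subunits of complex IV exist as isoforms that differ between tissues. Clofibrate and Wy-14,643 (pirinixic acid) both activate the nuclear receptor PPARα, which controls genes of fatty acid oxidation in rodent liver.

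The promoters of 5 members are printed because their mRNAs gave the largest responses or, for Ndufaf4, the clearest time course in vehicle livers. Each run is the 250 bases before the annotated start, 5′ to 3′ on the gene's own strand, from RefSeq on build GRCm38.p6: Cox6b2 at chr7:4753095-4753344 (minus strand), Ndufab1 at chr7:122101849-122102098 (minus), Cycs at chr6:50566570-50566819 (minus), Ndufb3 at chr1:58586147-58586396 (plus) and Ndufaf4 at chr4:24897833-24898082 (plus). Capitals mark a match to a searched motif.
Cox6b2: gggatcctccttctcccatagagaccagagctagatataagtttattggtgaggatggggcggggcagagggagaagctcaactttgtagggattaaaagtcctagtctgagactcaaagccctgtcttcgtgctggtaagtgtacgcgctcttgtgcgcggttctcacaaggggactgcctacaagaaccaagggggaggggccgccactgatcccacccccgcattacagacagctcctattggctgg
Ndufab1: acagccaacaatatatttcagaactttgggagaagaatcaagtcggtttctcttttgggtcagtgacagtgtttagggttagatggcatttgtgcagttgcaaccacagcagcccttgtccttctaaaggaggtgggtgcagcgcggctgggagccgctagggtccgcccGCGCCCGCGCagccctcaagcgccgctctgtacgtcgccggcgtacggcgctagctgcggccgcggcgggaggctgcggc
Cycs: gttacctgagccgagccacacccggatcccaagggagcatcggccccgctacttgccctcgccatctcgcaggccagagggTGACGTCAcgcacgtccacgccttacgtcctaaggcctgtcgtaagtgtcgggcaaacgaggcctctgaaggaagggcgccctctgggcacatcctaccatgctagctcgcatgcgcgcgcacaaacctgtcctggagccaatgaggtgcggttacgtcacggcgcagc
Ndufb3: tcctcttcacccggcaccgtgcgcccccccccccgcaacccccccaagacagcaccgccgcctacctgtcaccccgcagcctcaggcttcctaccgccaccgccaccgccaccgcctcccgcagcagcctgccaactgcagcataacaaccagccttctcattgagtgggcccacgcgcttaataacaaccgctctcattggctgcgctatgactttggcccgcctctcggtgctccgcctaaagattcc
Ndufaf4: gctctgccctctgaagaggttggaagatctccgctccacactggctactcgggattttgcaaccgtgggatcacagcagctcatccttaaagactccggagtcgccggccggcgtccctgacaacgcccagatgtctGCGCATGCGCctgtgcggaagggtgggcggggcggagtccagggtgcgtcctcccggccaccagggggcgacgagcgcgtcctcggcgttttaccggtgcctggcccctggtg

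Of the 91 members, 76 had an entry in the promoter table, some with more than 1 start, which gave 81 member promoters among 32851. The palindrome searched as a form of the NRF1 site was GCGC, any 2 bases and GCGC again. That palindrome lay in 17 of the 81 (20.99%) and in 4.977% of all promoters. It is the capitalised match of Ndufab1, at positions -80 to -71 from the start, and of Ndufaf4, at -113 to -104. The ETS core CCGGAAG lay in 13 (16.05%, against 6.907% of all), and the cyclic AMP response element TGACGTCA in 5 (6.173%, against 1.546%), among them Cycs at -169 to -162. The nuclear receptor core AGGTCA lay in 11 (13.58%, against 14.02%), and its direct repeat, AGGTCA, any base and AGGTCA again, which contains the core, in 0 (against 0.03348%). Both strands were searched, and in the Cox6b2 and Ndufb3 windows no letters matched any of the 5 motifs. These counts are of letters in these windows and describe no bound factor. Sites of the same factors with other letters were not searched for. A window without a match, such as that of Cycs for the palindrome, is thus not shown to lack such a site.

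Brightness limited what could be measured, because respiratory chain mRNAs lie near the top of the scale. In each group of 3 arrays the brightest probes were tied at a mean of 16 on the log2 scale, taken as the scanner limit. A probe counted as at the limit in a group only where all 3 of its values were the tied ones, so probes just below the limit stayed in. A probe at the limit in any of the 36 groups was not used, and each gene was read from its brightest remaining probe. Of the usable members, 21 had a mean deposited level of 15 or more. Whether nearness to the limit narrowed their effects was not tested. This left 64 members with a usable probe, 28 of complex I, 3 of complex II, 4 of complex III, cytochrome c, 9 of complex IV, 11 of complex V and all 8 of the rest. For 25 members every listed probe reached the limit, 14 of them in 30 or more of the 36 groups. These were Ndufa4, Ndufa5, Ndufa13, Ndufb7, Ndufb8, Ndufb9, Ndufb10 and Ndufb11, Sdhd, Uqcr10, Uqcr11, Uqcrfs1 and Uqcrh, Cox4i1, Cox5a, Cox5b, Cox6a1, Cox6c and Cox8a, and Atp5c1, Atp5e, Atp5g3, Atp5h, Atp5j and Atp5o. Cox7b2 and Cox8c had no value on any array. Of the 64 usable members, 58 were listed on all arrays, and 60 were read from a probe designed to a RefSeq transcript.

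Series-wide, arrays listed from 15750 to 22227 probes, and 12210 probes were listed on all 108 arrays. The deposited log2 values were scaled by each array's 75th percentile over those 12210 probes. Before scaling, the percentile of Wy-14,643 arrays differed from that of their vehicle by 0.39 at 24 h and by 0.62 at 1 day. Without scaling, the median difference over all genes was 0.20 in place of -0.09 at 4 h, 0.25 in place of -0.13 at 24 h and 0.47 in place of -0.15 at 1 day. With the percentile taken over every probe an array lists, it was -0.29 in place of -0.07 at 18 h, and -0.43 in place of 0.04 for clofibrate at 8 h. In the clofibrate arm the first vehicle arrays of 4 and 14 days were nearly copies of each other (r = 0.999981). Clofibrate called 0 of 59 members at each of those times, a count that could not fall. It was 0 also without the 14 day copy, and without the first vehicle arrays of all times. Of 8 hepatocyte markers, 4 had only probes at the limit and 3 were usable. Levels below are scaled log2 intensities, effects are differences of log2 means (treated minus vehicle), errors are standard errors from limma, and a call is a Benjamini-Hochberg adjusted p under 0.05 over all genes tested.

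Averaged over the 9 times with equal weights, Wy-14,643 raised 21 of 60 tested members and lowered 4, and the largest rises were in Cox6b2, Ndufab1 and Cycs. Of all genes tested, 20.6% were called higher and 35.6% lower in the same comparison. The median effect was 0.11 over the members, -0.07 over all genes and -0.04 over other genes at a mean level of 14 or more. With values left as deposited the members split 48 higher and 1 lower, beside 38.4% and 16.5% of all genes.

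Cox6b2, the subunit 6B isoform of complex IV known from testis, showed the largest response of all members. At 2 h the Wy-14,643 livers read 8.34, 8.21 and 8.64 and their vehicles 8.33, 7.69 and 7.96, which overlap. At 8 h they read 9.37, 9.42 and 9.43 against 8.07, 7.81 and 7.50, and at 14 days 11.91, 11.97 and 11.67 against 7.88, 7.96 and 7.42. From 4 h on every treated liver was above every vehicle liver of its time. The effect was 0.41 at 2 h (adjusted p = 0.254), 0.69 at 4 h (0.0113), 1.61 at 8 h, 2.20 at 12 h, 2.55 at 18 h, 2.41 at 24 h, 2.72 at 1 day, 2.55 at 4 days and 4.10 at 14 days, each ± 0.19. The last is 17.1-fold (adjusted p = 1.46e-20, limma). The 14 day effect exceeded the 24 h effect by 1.69 ± 0.27 (adjusted p = 5.94e-05). Its vehicle mean ranged from 7.75 at 14 days to 9.04 at 4 days in this arm. The mean over times was 2.14 ± 0.06, or 4.40-fold (adjusted p = 4.14e-29).

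Ndufab1 encodes the mitochondrial acyl carrier protein, which serves mitochondrial fatty acid synthesis and is also a subunit of complex I, and it was the only member called at 2 h. At 2 h the treated livers read 12.24, 11.92 and 11.86 and the vehicles 11.47, 11.57 and 11.33. The lowest treated liver already stood above the highest vehicle, with an effect of 0.55 ± 0.16 (adjusted p = 0.036), a call lost in 6 of 13 other settings. At 1 day the treated livers read 13.43, 13.76 and 13.79 against 11.81, 11.55 and 11.31, the widest separation. The effect rose through 0.80 at 4 h, 1.38 at 8 h, 1.49 at 12 h, 1.88 at 18 h and 1.76 at 24 h to 2.10 at 1 day (4.30-fold, adjusted p = 1.01e-13), and was 1.59 at 4 days and 1.73 at 14 days. Its mean was 1.48 ± 0.05, or 2.78-fold. A brighter probe of the gene, at the limit in 4 groups, gave 0.31 at 2 h, 1.25 at 1 day and 1.25 at 14 days. A dimmer one gave 1.17 at 2 h, 1.52 at 4 h, 1.85 at 8 h and 1.87 at 18 h, then 0.96 at 4 days and 0.93 at 14 days. The shape of the time course thus differed between probes.

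Cycs encodes somatic cytochrome c, the carrier between complexes III and IV. At 1 day the treated livers read 14.18, 14.50 and 14.51 and the vehicles 13.11, 13.24 and 12.75, without overlap. The effect was 0.10 at 2 h and 0.37 at 4 h (adjusted p = 0.117), passed the test from 8 h (0.77, adjusted p = 0.000199), reached 1.36 ± 0.15 at 1 day (2.57-fold, adjusted p = 5.31e-09) and was 0.88 at 14 days. A second usable probe gave 0.89 at 14 days. The brightest probe, at the limit in 9 groups, gave 0.65 at 14 days, and 0.39 at 24 h, where the call was lost.

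Ndufb3, an accessory subunit in the membrane arm of complex I, changed less in size, with no overlap between the groups from 12 h on. Its treated livers read 15.63, 15.56 and 15.86 at 24 h against 14.99, 15.01 and 15.12, and at 14 days 15.64, 15.68 and 15.74 against 15.19, 15.17 and 15.14. The spread of the vehicles was a small part of the gap at both times. The effect was 0.35 at 12 h (adjusted p = 0.0538), 0.66 at 18 h, 0.64 at 24 h and 1 day, 0.59 at 4 days and 0.52 at 14 days (adjusted p = 0.00473), each ± 0.13.

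**Figure D1:**
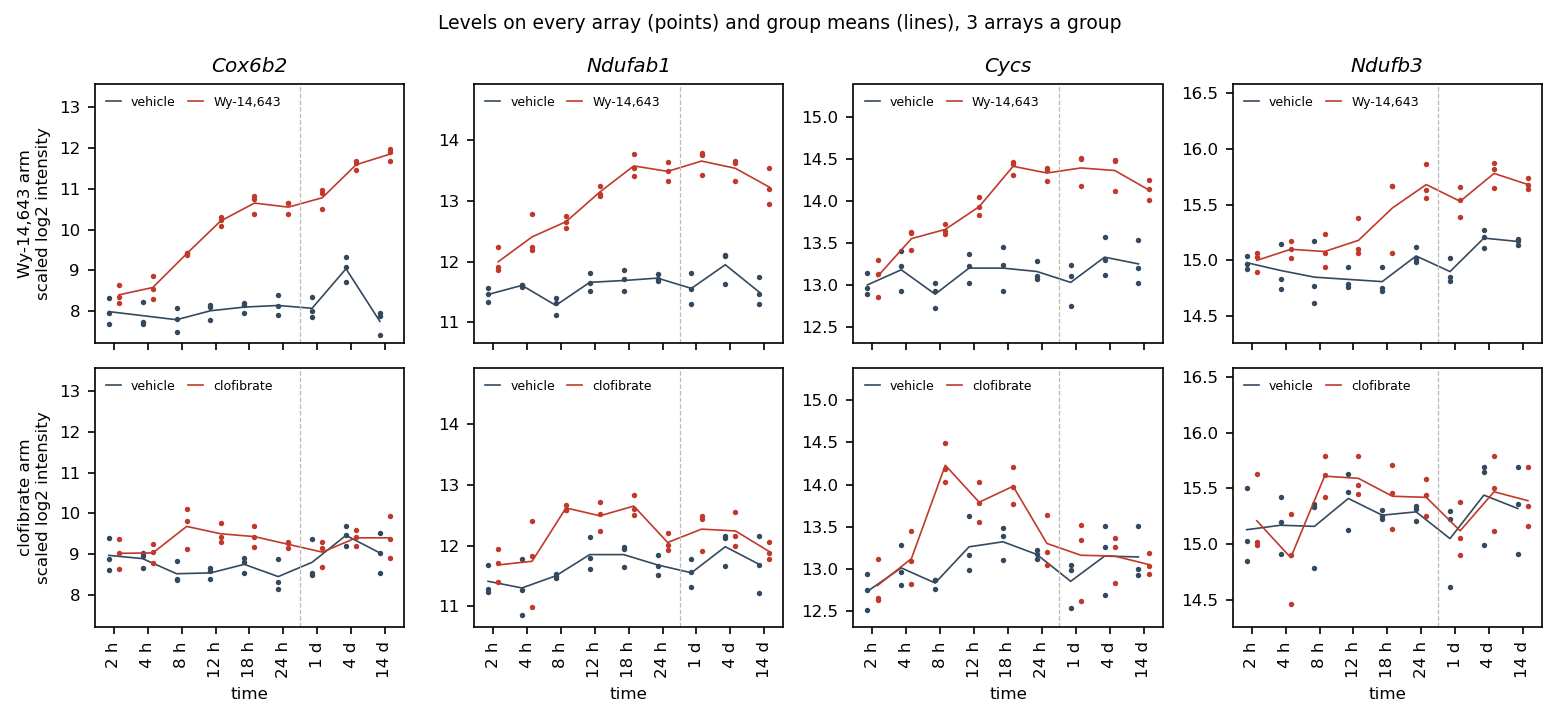
Scaled log2 intensity of Cox6b2, Ndufab1, Cycs and Ndufb3 on every array by time, with the Wy-14,643 arm in the upper row and the clofibrate arm in the lower. Points are the 3 arrays of a group, lines join group means and the dashed line parts single from daily dosing. In the upper row the treated points of Cox6b2 part from vehicle by 8 h and reach 11.91, 11.97 and 11.67 at 14 days; in the lower row the gap of Cycs is widest at 8 h.

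Time by time, between 1 and 13 members were called higher with Wy-14,643, fewest at 2 h and most at 14 days. At 2 h it was 1 of 61 (1.97% of all genes called higher), at 4 h 2 of 60 (3.96%), at 8 h 3 of 60 (6.84%) and at 12 h 3 of 61 (9.38%). At 18 h it was 4 of 60 (10.1%), at 24 h 6 of 61 (6.62%), at 1 day 9 of 61 (7.32%), at 4 days 6 of 60 (3.84%) and at 14 days 13 of 61 (9.3%). Up to 12 h the members called higher were Cox6b2, Ndufab1 and Cycs. At these times and at 18 h the share was near or below that of all genes. At most 1 member was called lower at any time, against 2.17% of all genes at 2 h, 6.28% at 4 h, 9.19% at 8 h, 9.95% at 12 h, 12.1% at 18 h, 9.95% at 24 h, 15.3% at 1 day, 4.12% at 4 days and 5.15% at 14 days.

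Mice of 1 replicate number deviated together in 16 of the 18 compound and time comparisons, including all 9 of Wy-14,643, and with that number as a block the counts were larger. In the Wy-14,643 arm the block gave 15 higher and 1 lower at 18 h (17.3% and 23.2% of all genes), 19 and 1 at 24 h (13% and 26.1%), 23 and 4 at 1 day (13.1% and 31.1%), 31 and 1 at 4 days (9.66% and 14.4%) and 34 and 1 at 14 days (18% and 12.5%). At the earlier times it gave 2 and 3 at 2 h (5.72% and 9.16%), 3 and 1 at 4 h (8.66% and 16.1%), and 5 and 5 at 12 h (16.6% and 19.3%). For the mean over times it gave 34 and 6 (26.1% and 45.4%). With values as deposited, 41 members were called at 24 h (29.1% of all genes higher, 2.35% lower) and 56 at 1 day (55.1% and 1.53%), and with the percentile over all listed probes the 18 h split was 4 higher and 5 lower in place of 4 and 1 (5.71% and 29.3%). Without vehicle replicate 3 the 1 day count fell from 10 to 4 (4.3% and 8.59%), and without treated replicate 2 the 14 day count fell from 13 to 6 (6.76% and 3.59%).

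The median effect over all tested members was close to that over all genes up to 12 h and lay further above it from 18 h on. It was -0.05 at 2 h, -0.07 at 4 h, -0.01 at 8 h and -0.05 at 12 h, beside -0.06, -0.09, -0.05 and -0.05 over all genes. It was 0.13 at 18 h, 0.19 at 24 h, 0.18 at 1 day, 0.29 at 4 days and 0.34 at 14 days, beside -0.07, -0.13, -0.15, -0.06 and 0.02 over all genes. Positive effects were found in 11 of 60 members at 4 h (36.28% of all genes) and in 55 of 61 at 14 days (52.98%). All 3 treated livers stood above all 3 vehicles for 31 of 61 members at 14 days (18.1% of all genes), for 26 of 60 at 4 days (12.4%) and for 1 of 61 at 2 h (5.65%).

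**Figure D2:**
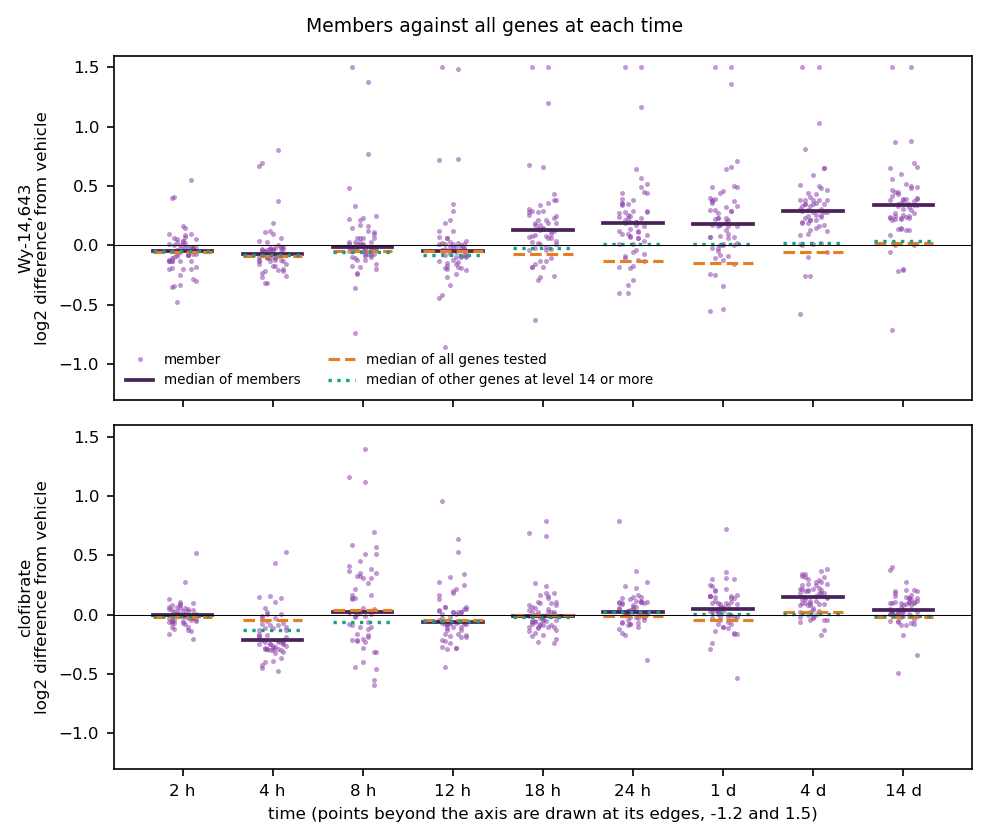
Effect of Wy-14,643 (upper panel) and clofibrate (lower panel) on each tested member at each time, in log2 units, with medians of the members, of all genes tested and of other genes at a mean level of 14 or more. In the upper panel the members' median runs from -0.07 to -0.01 at 2 to 12 h, beside -0.09 to -0.05 for all genes, and reaches 0.34 at 14 days; in the lower panel it runs from -0.21 at 4 h to 0.15 at 4 days.

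Within complex I, 12 of 27 tested members were higher and 1 lower in the mean over times with Wy-14,643 (20.6% and 35.6% of all genes), with a median of 0.11. After Ndufab1 and Ndufb3 came Ndufv2 (0.29 ± 0.06, adjusted p = 5.23e-05) and Ndufs7 (0.28), both core subunits that carry iron-sulfur clusters, and the accessory subunit Ndufa10 (0.27). Ndufa3, Ndufa12, the iron-sulfur core subunit Ndufs1, Ndufa8, Ndufb5, Ndufb6 and Ndufs4 were higher by 0.25 to 0.11. The Ndufa3 call was lost in 3 of 15 other settings, falling to 0.11 without vehicle replicate 1 (adjusted p = 0.353), that of Ndufa8 in 3 and that of Ndufb6 in 4. Ndufa6 was called lower (-0.15, adjusted p = 0.0364), which was lost in 5 of 15 other settings and came to -0.01 with values as deposited. At 14 days all 27 effects were positive, from 0.13 for Ndufs8 to 1.73 for Ndufab1, and 7 were called (9.3% of all genes higher). Ndufa10 read 14.10, 13.71 and 13.48 in treated livers then, against 13.29, 13.07 and 12.94, and Ndufs4 14.74, 14.70 and 14.99 against 14.27, 14.38 and 14.42. Neither pair of groups overlapped, and the effects were 0.66 ± 0.22 (adjusted p = 0.0332, lost in 4 of 13 other settings) and 0.45 ± 0.11 (0.00235).

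Complex II, which is also an enzyme of the tricarboxylic acid cycle, showed no called member among 3 tested in the mean, beside 20.6% of all genes higher and 35.6% lower. Mean effects of Wy-14,643 ran from -0.09 ± 0.05 for the iron-sulfur subunit Sdhb to 0.02 ± 0.06 for the membrane anchor Sdhc. The flavoprotein Sdha had -0.02 ± 0.06, and its probes of like brightness disagreed at 14 days, with 0.34 for the one used and -0.18 for the other. In complex III, beside the same shares, 2 of 4 tested members were higher and 1 lower. The higher ones were the core protein Uqcrc2 (0.17 ± 0.05, adjusted p = 0.00525, lost in 2 of 15 other settings) and Uqcrb (0.14, lost in 5 of 15 other settings), while the core protein Uqcrc1 had 0.08 ± 0.06. At 1 day Uqcrc2 read 15.29, 15.41 and 15.59 in treated livers against 15.03, 15.21 and 14.73, without overlap (0.44, adjusted p = 0.0395, lost in 4 of 13 other settings). Uqcrq was called lower (-0.13), but it was read from a dim probe, its other probe stood at the limit in all 36 groups, and the sign turned under quantile normalization (0.03) and with values as deposited (0.01).

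Complex IV was measured in 6 members in the mean over times, and 1 was called, Cox6b2 (20.6% of all genes higher, 35.6% lower). The ubiquitous counterpart Cox6b1 had a mean effect of 0.20 ± 0.12 (adjusted p = 0.145) and 0.65 ± 0.35 at 14 days (0.244; with the replicate block, 2.11e-05). The other isoform sets could be compared only in part. Cox4i1, Cox6a1 and Cox8a had only probes at the limit, and their counterparts Cox4i2, Cox6a2 and Cox8b, of which Cox6a2 and Cox8b are heart and muscle isoforms, were listed on 3, 39 and 12 arrays. Cox6a2 was called lower at 1 day (7.06, 6.71 and 6.64 against 7.45, 7.30 and 7.30), but with values as deposited its effect was 0.07.

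Cox7a1, the heart and muscle isoform of subunit 7A, changed late. Under Wy-14,643 it read 10.20, 10.59 and 10.45 at 24 h against 10.67, 11.24 and 10.53, which overlap. At 4 days it read 11.70, 11.76 and 11.37 against 10.95, 10.76 and 10.70, and at 14 days 12.30, 11.93 and 12.12 against 11.35, 11.12 and 11.29, with every treated liver above. The effect was -0.40 at 24 h, 0.81 at 4 days (adjusted p = 0.0131, lost without treated replicate 1 or 2) and 0.87 ± 0.22 at 14 days (1.82-fold, adjusted p = 0.00372). The 14 day effect exceeded that at 24 h by 1.27 ± 0.31 (adjusted p = 0.0117). Of 5 muscle markers 3 had a usable probe, none on all arrays, and their log2 summed level was 7.48 to 8.39 in treated and 7.39 to 8.77 in vehicle livers of this arm. The liver isoform Cox7a2 had 0.35 ± 0.21 at 14 days (adjusted p = 0.307). In the comparison of 14 days with 24 h, Cox6b2 and Cox7a1 were the 2 calls of 60 (2.06% of all genes higher, 0.667% lower); the block gave 3 higher and 1 lower (9.84% and 2.8%), and values as deposited 1 higher and 2 lower (0.73% and 6.79%).

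In the ATP synthase, 4 of 11 tested members were higher in the mean and 0 lower, beside 20.6% and 35.6% of all genes. These were the stator subunit Atp5pb (0.29 ± 0.07, adjusted p = 0.000295), the small proteolipid Atp5mpl (0.30 ± 0.12, 0.0252), Atp5d, a subunit of the central stalk (0.14), and Atp5g1, one of the genes for the proton-carrying ring subunit (0.12). The calls of Atp5mpl and Atp5d were each lost in 5 of 15 other settings and that of Atp5g1 in 4, with values down to 0.17, 0.09 and 0.08. The ring gene Atp5g2 had 0.10 ± 0.06, and Atp5a1 and Atp5b, both of the catalytic head, had 0.04 ± 0.06 and 0.13 ± 0.07, none called. Atp5pb read 13.82, 13.92 and 13.82 at 1 day against 13.19, 13.41 and 12.83, without overlap (0.71, adjusted p = 0.00824). Other probes of the gene went the other way at that time. A brighter one, at the limit in 20 groups, gave -0.36, and a dim one, at a mean level of 8.01, gave -0.41. At 14 days 10 of 11 effects in this complex were positive with a median of 0.35, and Atp5l was called (0.35, adjusted p = 0.0473), which was lost in 7 of 13 other settings.

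**Figure D3:**
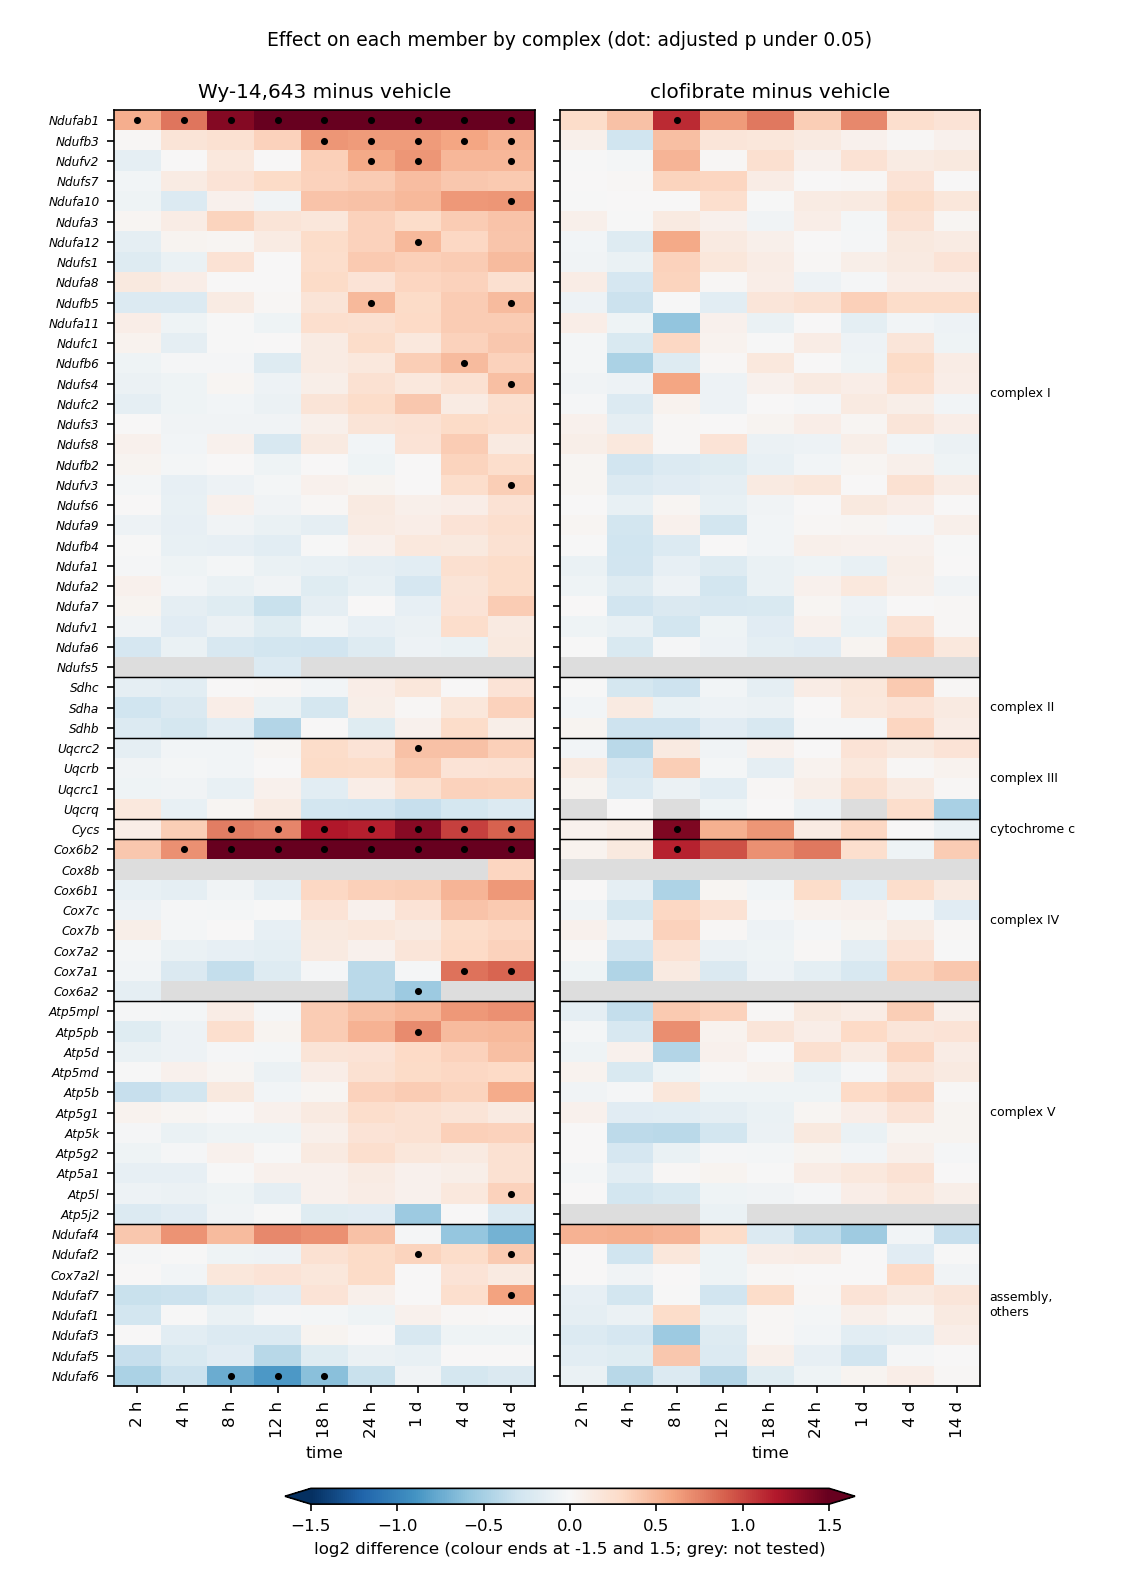
Effect of Wy-14,643 (left) and clofibrate (right) on each usable member, in rows by complex, at each time. Colour gives the log2 difference from vehicle, ending at -1.5 and 1.5, grey cells were not tested and dots mark calls. The left panel has 1 dot at 2 h and 13 at 14 days; the right panel has 3, all at 8 h.

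Calls among the 8 assembly factors and others taken in by the symbols were few and went both ways. In the mean over times 1 of 8 was higher with Wy-14,643 (Ndufaf2, 0.15 ± 0.04, adjusted p = 0.000981) and 2 lower (Ndufaf6, and Ndufaf5 with -0.17 and adjusted p = 0.0478), beside 20.6% and 35.6% of all genes. Of 38 assembly factors outside the symbol rule, 9 were higher and 0 lower in the same comparison. The Ndufaf5 call was lost in 8 of 15 other settings, with -0.03 as deposited. At 14 days 3 of 8 effects were positive, with a median of 0. Ndufaf6 read 11.14, 11.24 and 11.08 at 12 h against 11.92, 11.85 and 12.29, every treated liver below every vehicle. Its effect was -0.74 at 8 h, -0.86 ± 0.22 at 12 h (adjusted p = 0.00351) and -0.63 at 18 h (lost in 4 of 13 other settings), and -0.22 at 14 days (0.606). Ndufaf7, a methyltransferase that acts on a core subunit, was called only at 14 days, where it read 12.09, 12.09 and 11.88 against 11.42, 11.40 and 11.44 (0.60, adjusted p = 0.00967).

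Ndufaf4 had the strongest time course in vehicle livers. Its vehicle mean in the Wy-14,643 arm was 11.55 at 2 h, 12.53 at 4 h, 12.73 at 8 h, 13.03 at 12 h, 12.46 at 18 h and 12.08 at 24 h. In the clofibrate arm it was 11.44, 12.37, 12.39, 12.99, 12.37 and 11.95 at the same times. Both arms peaked at 12 h, and it was the only member called for a change over the single-dose hours in vehicle livers, 1 of 60 in the Wy-14,643 arm (26.2% of all genes, adjusted p = 0.00436) and 1 of 58 in the clofibrate arm (10.6%, 0.0433). With values as deposited 13 and 2 members were called in these arms (49% and 18.3% of all genes), with the percentile over all listed probes 5 and 38 (35.2% and 50.1%), and with probes at the limit allowed 2 and 2 (26.4% and 10.7%). Its clofibrate arm call was absent in 5 of 6 fits that left out a replicate, and that of the Wy-14,643 arm without vehicle replicate 1. Atp5a1, read from a probe near the limit (mean deposited level 15.64), was among the 3 members that varied least over these hours in both arms. With Wy-14,643, Ndufaf4 read 13.75, 13.92 and 13.59 at 12 h against 13.12, 13.07 and 12.91, and at 14 days 11.26, 11.28 and 11.68 against 11.82, 12.61 and 11.91. The groups did not overlap at either time and lay in opposite order. Neither effect alone was called (0.72, adjusted p = 0.104, and -0.71, adjusted p = 0.129; with the replicate block, 0.00409 and 0.00559).

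**Figure D4:**
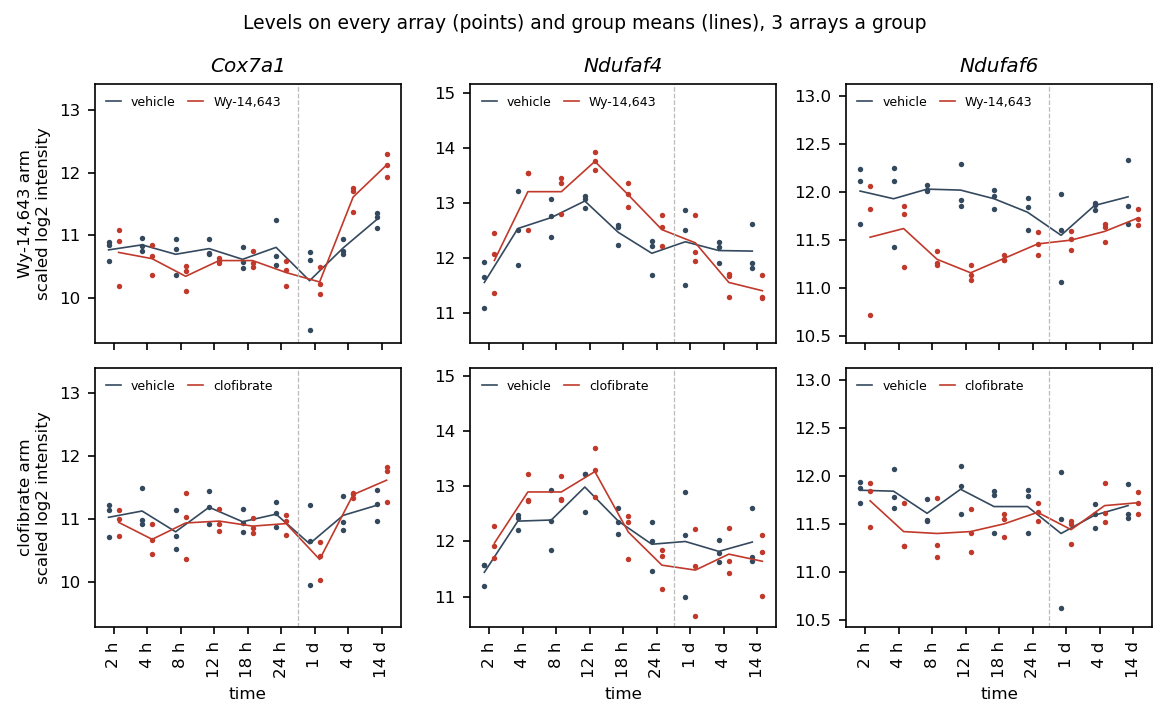
Scaled log2 intensity of Cox7a1, Ndufaf4 and Ndufaf6 on every array by time, with the Wy-14,643 arm in the upper row and the clofibrate arm in the lower; points are arrays, lines join group means and the dashed line parts single from daily dosing. Vehicle livers peak at 12 h for Ndufaf4 in both rows, and treated Cox7a1 stands above vehicle at 4 and 14 days in the upper row.

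The Wy-14,643 effect varied over the 9 times for 8 of 60 members, beside 20% of all genes (F test, limma). These were Cox6b2 (adjusted p = 6.22e-13), Ndufab1 (6.33e-06), Cycs (0.000139), Cox7a1 (0.00429), Ndufaf7 (0.0251), Ndufb3 (0.0365), Ndufaf4 (0.0427) and Ndufb5 (0.0444). With the replicate block 31 members were called (54.8% of all genes), and without vehicle replicate 2 there were 3 (12%). For clofibrate the test called Cycs alone among 58 (adjusted p = 0.0344; 2.41% of all genes), and 0 members in 5 of 6 fits that left out a replicate, with values as deposited or with probes at the limit allowed.

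With clofibrate and no replicate block, single-time calls among the members were made at 8 h, where their share was near that of all genes. Called higher then were 3 of 58, Cycs, Cox6b2 and Ndufab1, and 0 lower (6.23% and 5.18% of all genes); with the percentile over all listed probes the split was 3 higher and 24 lower (1.73% and 36.5%), and with values as deposited 3 and 2 (3% and 13.4%). Cycs read 14.03, 14.18 and 14.49 against 12.76, 12.87 and 12.86, and Ndufab1 12.59, 12.58 and 12.67 against 11.53, 11.50 and 11.47. Cox6b2 read 9.13, 9.82 and 10.10 against 8.36, 8.83 and 8.38. For all 3 genes every treated liver stood above every vehicle. The effects were 1.40 ± 0.22 for Cycs (2.65-fold, adjusted p = 2.65e-05), 1.12 ± 0.24 for Ndufab1 (0.00155) and 1.16 ± 0.27 for Cox6b2 (0.00311). Without treated replicate 3 the Cox6b2 call was lost, and with the brightest probe, limit allowed, that of Cycs (0.56, adjusted p = 0.0594). Without treated replicate 1 the 8 h count rose to 7 (9.82% of all genes higher, 8.62% lower). Atp5pb (0.70, adjusted p = 0.0503) and Ndufb3 (0.45, 0.217) also had groups that did not overlap, in all 10 of 58 members (14.2% of all genes).

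At the other 8 times limma called 0 of 58 to 60 members for clofibrate, in either direction. Higher calls over all genes were 0.245% after 2 h, 1.38% after 4 h, 0.905% after 12 h, 0.162% after 18 h, 0.0501% after 24 h, 0.102% after 1 day, 0.203% after 4 days and 0.0294% after 14 days. Lower calls were 0.0204% for 2 h, 1.1% for 4 h, 0.392% for 12 h, 0% for 18 h and for 24 h, 0.0102% for 1 day, 0.107% for 4 days and 0.0098% for 14 days. At an unadjusted p under 0.05 there were 0, 1, 4, 3, 1, 2, 0 and 0 members at these times, beside 2.95%, 12.5%, 8.2%, 3.16%, 0.811%, 2.65%, 7.59% and 1.79% of all genes. The replicate block called 1 member at 4 h (4.28% of all genes higher, 4.61% lower), 2 at 12 h (2.45% and 1.94%) and 1 at 18 h (0.449% and 0.0629%). At 1 day, where not every same-numbered pair of mice deviated together, it also called 1 (0.254% and 0.0915%). At 4 h the members' median was -0.21, beside -0.04 for all genes, with 10 of 59 effects positive (43.97% of all genes), and at 4 days it was 0.15, beside 0.02, with 50 of 59 positive (53.03%). In the mean over times 3 of 58 were higher (3.23% of all genes) and 0 lower (2.57%), namely Ndufab1 (0.54 ± 0.08, adjusted p = 6.5e-06), Cox6b2 (0.48 ± 0.09, 0.000225) and Cycs (0.35 ± 0.07, 0.00193; 0.09 and 0.556 with the brightest probe, limit allowed).

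The compounds were compared as 1 pair at the same dose and times, each against its own vehicle, with p-values adjusted over all genes tested. In the mean over times the Wy-14,643 effect minus the clofibrate effect was called above 0 for 4 of 58 members and below 0 for 1 (7.33% and 10.9% of all genes); the block gave 14 and 1 (14.5% and 21.7%), and the percentile over all listed probes 9 and 0 (14.1% and 5.77%). The difference was 1.65 for Cox6b2 (95% interval 1.43 to 1.87, adjusted p = 1.08e-21), 0.94 for Ndufab1 (0.75 to 1.13, 1.3e-12), 0.50 for Cycs (0.32 to 0.68, 1.26e-05) and 0.33 for Ndufb3 (0.15 to 0.51, 0.00496). For Ndufaf6 it was -0.29 (-0.50 to -0.09, 0.0352). The calls of Ndufb3 without vehicle replicate 2, and of Ndufaf6 in 8 of 16 other settings, were lost.

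By time, the difference for Cox6b2 was 0.35 at 2 h, 0.54 at 4 h and 0.46 at 8 h, and 1.25, 1.86, 1.62, 2.47, 2.61 and 3.72 from 12 h to 14 days. For Ndufab1 it grew from 0.27 at 2 h to 1.52 at 14 days. For Cycs it was -0.64 at 8 h, where clofibrate had its peak, and 1.05 at 24 h and 1 day. Called higher were 0 members at 2, 4 and 8 h (0%, 0% and 0.0218% of all genes), 1 at 12 h (Cox6b2, 0.456%, lost in 8 of 14 other settings, each fit that left out a replicate among them), 2 at 18 h (with Ndufab1, 1.53%), and 3 at 24 h (1.43%), 1 day (0.551%), 4 days (0.644%) and 14 days (1.26%), when Cycs joined. No member was called lower at any time, beside at most 1.15% of all genes, at 18 h. The Cycs calls were lost in 4 of 14 other settings for 24 h, 6 for 1 day, 5 for 4 days and 9 for 14 days, and that of Ndufab1 at 18 h in 6. Without the copied vehicle array the Cycs difference at 14 days was 0.79 (adjusted p = 0.261).

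For 53 of 58 members the compounds did not differ by the test, and their intervals for the mean difference lay between -0.33 and 0.60. The interval was -0.16 to 0.17 for Atp5a1, -0.12 to 0.25 for Uqcrc1, -0.26 to 0.22 for Sdhb, -0.22 to 0.39 for Cox7a2 and -0.13 to 0.54 for Cox6b1. By complex, the median mean effect was 0.11 for Wy-14,643 and 0.03 for clofibrate in complex I, -0.02 and -0.01 in complex II, 0.11 and 0.03 in complex III, 0.12 and 0 in complex IV, and 0.12 and 0.02 in complex V.

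Probes of the same gene were set against each other where a gene had several. In 10 members a used probe stood beside one at the limit in some group, and 9 of them had both values at 14 days with Wy-14,643. The probe at the limit then gave the smaller difference in absolute size in 9 of 9, but in 5 of 9 at 1 day, in 6 of 9 at 24 h and in 2 of 9 at 4 h. A probe tied at the limit in both groups has equal deposited values, so its scaled difference is the scaling step alone, -0.62 at 1 day and 0 at 14 days for Atp5b and Uqcrq, whatever the mRNA level. The members read only from probes at the limit, among them Cox4i1, Cox5a and Cox5b of complex IV, are given no fold here. With the brightest probe used whether or not it reached the limit, 20 members were called at 1 day, 9 higher and 11 lower, in place of 9 and 1 (7.38% of all genes higher, 16.1% lower).

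**Figure D5:**
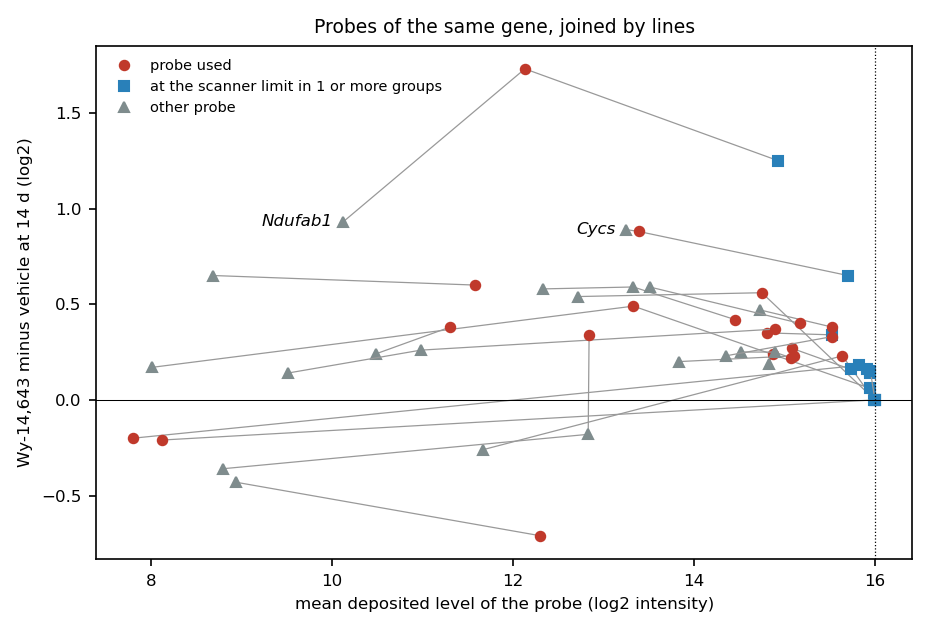
Effect of Wy-14,643 at 14 days (log2) against the mean deposited level of the probe for the 23 members with several probes drawn, lines joining probes of a gene. The dotted line marks the limit of 16; squares are probes at the limit in 1 or more groups, and at this time they lie closer to 0 than the used probe in 9 of 9 genes with both kinds, which was so in 5 of 9 at 1 day.

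Genes around the chain were read from lists of their own, whose counts stand beside 20.6% of all genes higher and 35.6% lower with Wy-14,643 in the mean, and 3.23% and 2.57% with clofibrate. Among enzymes that pass electrons into the chain or exchange ATP, 8 of 11 were higher and 1 lower in the mean with Wy-14,643. The largest were Gpd2, the mitochondrial glycerol phosphate dehydrogenase (1.11 ± 0.08), and Etfdh, which passes electrons from fatty acid oxidation to ubiquinone (1.05 ± 0.07), followed by the ATP carrier Slc25a4 (0.61), and Dhodh was lower (-0.20). With clofibrate 3 of 11 were higher, Etfdh (0.58), Gpd2 (0.40) and Chdh (0.28). Of 38 assembly factors outside the symbol rule 9 were higher and 0 lower, led by Cox18 (0.44), the copper chaperone Cox17 (0.36) and Cox19 (0.32), with a median of 0.02. Of 11 tricarboxylic acid cycle genes 7 were higher, among them Dlst (0.49) and citrate synthase Cs (0.34). Of 15 factors of mitochondrial biogenesis 4 were higher and 5 lower, the coactivator Ppargc1b at 0.41 and its relative Ppargc1a at -0.65 ± 0.12. Mitochondrial ribosomal proteins were higher for 44 of 77 and lower for 1, with a median of 0.13, and cytosolic ribosomal proteins higher for 22 of 54 and lower for 1, with a median of 0.12. The members' median of 0.11 stands beside those values. With clofibrate 0 of 35 assembly factors, 0 of 11 cycle genes, 0 of 13 biogenesis factors, 0 of 77 mitochondrial and 0 of 49 cytosolic ribosomal proteins were called in the mean.

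Markers of other cells were read in the same comparisons. Of 8 Kupffer cell markers 7 were lower and 0 higher in the mean with Wy-14,643 (35.6% of all genes lower, 20.6% higher), with a median of -0.25, of -0.57 at 24 h and of 0.06 at 14 days. Their log2 summed level ran from 15.32 to 16.48 in treated and from 15.34 to 17.71 in vehicle livers. Lower in the mean were also 2 of 6 endothelial markers (median -0.01), 3 of 7 stellate cell markers (-0.14), 2 of 3 cholangiocyte markers (-0.18), 1 of 2 erythroid markers (-0.32) and 1 of 3 hepatocyte markers (-0.08). The single lymphocyte and muscle markers tested had -0.19 and -0.06 and were not called, and no tested marker was called higher in the mean. At 14 days the medians were 0.24 for endothelial, -0.13 for stellate cell, 0.26 for cholangiocyte, 0.20 for lymphocyte, -0.35 for erythroid and -0.51 for hepatocyte markers. Their part in the members' shift was not tested.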

How the data were processed

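Total liver RNA was labelled with Cy3 and hybridised to Agilent arrays, per the labels. The values are log2 intensities as deposited by the authors. Image reading, background handling and normalization are not given in the sources used here. 51.48% of the values are empty, and 32609 probes carry 1 gene symbol.

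Each array was scaled by its 75th percentile over the 12210 probes listed on all arrays, and each gene was read from its brightest probe that stood at the scanner limit (16) in no group, which left 14816 genes. Each arm was fitted with a mean for every group in limma 3.58.1 (R 4.3.3), with a variance trend on level and Benjamini-Hochberg adjustment per comparison. Mean effects over the 9 times and differences between compounds were contrasts of those groups. The fit was checked against lmFit and tested on simulated data. Drawing used matplotlib 3.10.9.

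Same-numbered replicates deviated together (every pair over 0.1) in 16 of 18 comparisons, all except clofibrate at 8 h and 1 day. That correlation is the source of the pairing, and the replicate number was fitted as a block in an alternative. Other alternatives changed the scaling, the probe, the filter on dim genes and the arrays used.

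The members and lists were chosen with earlier results of these data known. Members named with values were the highest and lowest of each class, compound, time and compound difference, the tissue isoform sets, the extremes of the vehicle time course and the leading genes of the other lists. Other called members of each complex were also named after their values were seen.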

Additional observations from a re-analysis of the deposited data

Results flagged for a closer look

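The compounds differed by the test of the difference itself for 5 of 58 members in the mean over the 9 times, 4 above 0 and 1 below. Of all 8058 genes tested, 591 were called above 0 and 875 below, so the members' shares were near or below those of all genes. The Wy-14,643 effect minus the clofibrate effect was 1.65 for Cox6b2, 0.94 for Ndufab1, 0.50 for Cycs, 0.33 for Ndufb3 and -0.29 for Ndufaf6, on the log2 scale.

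The Wy-14,643 effect at 14 days of daily dosing differed from that 24 h after a single dose for 2 of 60 members, by 1.69 for Cox6b2 and by 1.27 for Cox7a1. Of all 11090 genes tested in that comparison, 229 were called higher and 74 lower. The Cox7a1 call was lost in 4 of 13 other settings (adjusted p up to 0.227, limma), and that of Ndufaf6 between the compounds in 8 of 16. With 3 arrays per group, single outlying arrays were not tested.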

How the results depend on the processing

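Across 35 counts of called members, 384 of 483 recomputed values were within 1.5 times the reported one, and of 104 called member results 50 passed the test under every alternative tried. The causes of the other values were not tested. Counts below that stand without a share of all genes describe the processing and are not read as results about the members.

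With the replicate block, Wy-14,643 calls were 5 at 2 h, 4 at 4 h, 10 at 12 h, 16 at 18 h, 20 at 24 h, 27 at 1 day, 32 at 4 days, 35 at 14 days, 40 in the mean and 4 for 14 days against 24 h. The block gave 31 members with a varying effect, clofibrate calls of 1 at 4 h, 12 at 8 h, 2 at 12 h, 1 at 18 h and, at 1 day, 1, with 5 for a varying effect. It gave 3 for the clofibrate arm's vehicle hours, and compound differences of 2 at 12 h, 5 at 24 h, 5 at 14 days and 15 in the mean. For clofibrate at 8 h, where 12 of 58 members were higher, the block called 1462 of all 9374 genes higher and 1254 lower. For the compound difference it called 202 of 10959 genes higher and 197 lower at 12 h. At 24 h these were 428 and 422 of 9878, and at 14 days 442 and 188 of 10087. For clofibrate at 8 h and 1 day not every same-numbered pair deviated together. The correlations were 0.56, 0.35 and -0.04 at 8 h, and 0.67, -0.14 and -0.18 at 1 day. The labels do not say what a number shares. The block moved no other count by over 1.5 times. With values as deposited, Wy-14,643 calls were 5 at 4 h, 41 at 24 h, 56 at 1 day, 10 at 4 days, 49 in the mean and 42 for a varying effect. Clofibrate then had 5 at 8 h, 1 at 12 h, 2 at 1 day and 0 varying, the difference 0 at 12 h and 1 at 18 h, and the vehicle hours 13 and 2 in the Wy-14,643 and clofibrate arms. With the percentile over all listed probes, Wy-14,643 had 9 at 18 h, clofibrate 27 at 8 h and 2 varying, the difference 12 at 8 h, 1 at 18 h and 9 in the mean, and the vehicle hours 5 and 38. With probes at the limit allowed, Wy-14,643 had 0 at 2 h, 1 at 4 h and 20 at 1 day, the difference 1 each at 18 h, at 1 day and at 4 days, clofibrate 0 varying, and the vehicle hours 2 and 2. With quantile normalization the difference at 12 h had 0. Reversed signs were Atp5pb at 1 day (-0.36, from a probe at the limit in 20 groups, where one tied at the limit in both groups reads -0.62 by scaling alone), Cox6a2 at 1 day (0.07, as deposited) and Uqcrq in the mean (0.03 by quantile and 0.01 as deposited).

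Leaving out each replicate in turn, Wy-14,643 calls ran 0 to 1 at 2 h, 1 to 2 at 4 h, 3 to 4 at 8 h, 4 to 5 at 12 h, 4 to 6 at 18 h and 24 h, 4 to 12 at 1 day, 4 to 7 at 4 days, 6 to 14 at 14 days, 17 to 30 in the mean, 1 to 2 for 14 days against 24 h and 3 to 10 varying. Clofibrate ran 2 to 7 at 8 h, 3 to 3 in the mean, 0 to 1 varying and 0 elsewhere. The difference ran 0 to 0 at 2, 4, 8 and 12 h, 1 to 2 at 18 h, 1 to 3 at each time from 24 h to 4 days, 2 to 3 at 14 days and 3 to 6 in the mean, and the vehicle hours 0 to 1 in both arms. The number of arrays, 3 per group, and the scanner limit restrict the precision.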
